A study of Mus musculus with 4 samples.

Results

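Endothelial cells line blood and lymphatic vessels, and a small number of barcodes in all 4 libraries of cultured mouse adipose cells carried their transcripts. A barcode was counted as one of these endothelial-marker barcodes, called members here, when it held 5000 to 75000 UMIs (a UMI is the tag of a single captured RNA molecule), 200 to 7500 genes, under 10% mitochondrial UMIs, and at least 1 UMI in 3 or more of 6 endothelial genes. Members were thus chosen by the UMI counts of these 6 genes, which were *Pecam1*, *Cdh5*, *Emcn*, *Cd93*, *Egfl7* and *Adgrl4*. Of 28262 barcodes within the same limits, 380 were members (1.34%, exact binomial 95% interval 1.21 to 1.49), and the remaining 27882 are called the other barcodes.

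The libraries came from chow-fed male C57BL/6J mice, no transgene or treatment was stated, and each condition had 1 library. The iWAT_DFAT and eWAT_DFAT libraries held de-differentiated fat (DFAT) cells, grown by ceiling culture from the floating adipocytes of inguinal (iWAT) and epididymal (eWAT) white fat. The iWAT_ASPC and eWAT_ASPC libraries held cultured cells of the stromal vascular fraction (SVF) of the same depots, referred to as adipose stem and progenitor cells (ASPCs). All were primary adherent cultures that had been trypsinised and sorted for live cells, the floating adipocytes having been separated from the SVF by centrifugation. The age of the mice and the number pooled per library were not given in the sources used here. With 1 library per condition, intervals given for a library hold counting error only, and differences between cultures of 1 condition were not measured.

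Endothelial identity rests on transcription factors of the ETS, SOX and KLF families, on the receptors for VEGF and the angiopoietins, and on adherens and tight junctions that seal the vessel wall. In adipose tissue, capillary endothelial cells carry lipoprotein lipase on GPIHBP1 and pass fatty acids onward with CD36 and FABP4. Arteries are marked by Notch ligands and connexins, veins by P-selectin and the Duffy receptor ACKR1, and lymphatic vessels by the transcription factor PROX1.

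The members were uneven between the libraries. There were 22 members among 7629 barcodes of iWAT_DFAT (0.288%, exact 95% interval 0.181 to 0.436), 151 of 6464 in eWAT_DFAT (2.34%, 1.98 to 2.73), 58 of 7424 in iWAT_ASPC (0.781%, 0.594 to 1.01) and 149 of 6745 in eWAT_ASPC (2.21%, 1.87 to 2.59). Both epididymal libraries thus held larger shares than both inguinal ones, with intervals that did not overlap, and with 1 library per condition no test between depots was made. The members were shallower than the other barcodes: their median UMI counts were 18698.5, 11853, 15997 and 14947 in iWAT_DFAT, eWAT_DFAT, iWAT_ASPC and eWAT_ASPC, against 22123, 27648, 25002 and 27761.5. This order of libraries is used for every set of 4 values below. Since a barcode of low depth shows fewer markers, the share was also measured after thinning each barcode to 5000 UMIs, when 341 barcodes (1.21%) met the rule.

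The libraries themselves held 211396227 to 242282812 UMIs over 32285 genes. In pairs of libraries, 97 barcode sequences were shared within the limits. None was a member in both libraries of a pair, and 3 members had a barcode that was also present, not as a member, in another library. Scrublet, a doublet caller, marked at most 0.0445% of a library by its own threshold and had thus not worked. Removing instead the highest scores, at the rate expected from the number of barcodes, would take out 466, 334, 441 and 364 barcodes. These held 1, 24, 5 and 17 of the 22, 151, 58 and 149 members, a larger share than of all barcodes except in iWAT_DFAT.

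The threshold of 3 markers fell in a gap of the distribution. Over the 4 libraries 21521 barcodes had a UMI in none of the 6 genes, 5984 in 1 and 377 in 2, just outside the rule, while 27 had 3, just inside it, 35 had 4, 71 had 5 and 247 had all 6. A list of 25 other pan-endothelial genes, which the rule did not use, had a summed level of 160 CPM (UMIs per 1000000 counted) in barcodes with 2 markers, 574 CPM in those with 3 and 3188, 3248 and 4176 CPM in those with 4, 5 and 6. A list of 15 stromal genes went from 6154 CPM at 2 markers to 6286 CPM at 3 and 2166, 1523 and 1297 CPM at 4, 5 and 6. The 27 barcodes just inside the rule were therefore nearer to the other barcodes in both lists. They were deep, with a median of 30522 UMIs, and 17 of them carried a UMI of *Pdgfra*, the receptor that marks adipose stromal cells, against 7 of 35, 11 of 71 and 32 of 247 with 4, 5 and 6 markers.

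**Figure D1:**
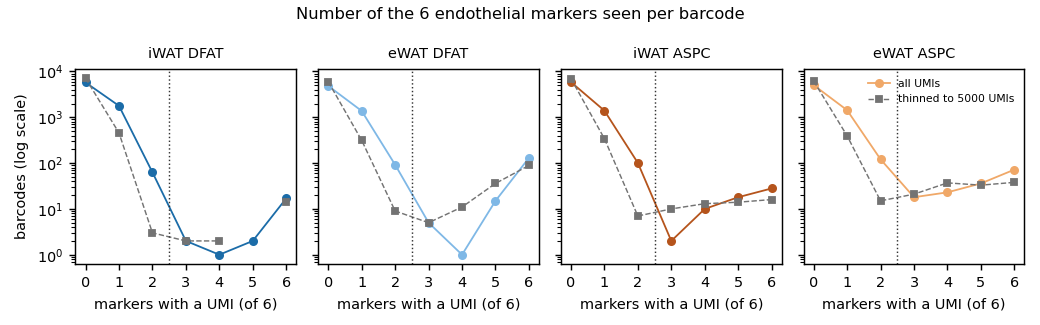
Barcodes (log axis) by the number of the 6 endothelial markers with a UMI, one panel per library, with coloured circles for all UMIs, grey squares after thinning to 5000 UMIs and a dotted line at the threshold. Over the 4 libraries the counts drop from 377 barcodes at 2 markers to 27 at 3 and rise to 247 at all 6, so that most members sit well above the threshold.

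The 6 marker genes chose the members, so their levels are given as a description, and no test of the difference that chose them is given. *Pecam1* (chr11:106654217-106750628, minus strand; GENCODE M21 on GRCm38), the junctional adhesion molecule CD31, stood at 668, 444, 449.8 and 382 CPM in members and at 0.370 to 0.824 CPM in the other barcodes. *Cdh5* (chr8:104101625-104144511, plus strand), which encodes VE-cadherin of the adherens junction, stood at 848, 478, 402 and 385 CPM, against 0.218 to 4.23. *Emcn* (chr3:137341067-137432185, plus strand), the sialomucin endomucin of veins and capillaries, was at 395, 849.7, 1865 and 970.2 CPM. It was the most uneven of the 6, with its lowest level in iWAT_DFAT and its highest in iWAT_ASPC. *Cd93* (chr2:148436640-148443563, minus strand), a transmembrane C-type lectin, was at 518, 605, 279 and 257 CPM, and *Egfl7* (chr2:26580014-26593120, plus strand), a secreted factor that hosts the microRNA miR-126, at 597, 482, 675 and 1234 CPM. *Adgrl4* (chr3:151437887-151545086, plus strand), an orphan adhesion receptor, was at 389, 539.7, 243 and 178 CPM. Its level was lower in both ASPC libraries than in both DFAT libraries. In droplets with 1 to 100 UMIs, which hold free RNA, *Pecam1* was at 2.76, 8.50, 4.06 and 4.65 CPM.

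Promoters of the most specific genes are shown because ETS factors, which bind a core GGAA, are the shared activators of endothelial genes. RefSeq windows of 300 bases (250 before to 50 after the start, GRCm38.p6, printed on the gene's strand) were found for 21 of 26 genes, namely 3 of the 6 markers and 18 of the 20 genes highest in members. The hexamer AGGAAG, an extended ETS core, was searched on both strands. A gene with several windows was counted where any held it. The hexamer was present in 35.4% of all 32851 windows, in 37.7% of the 12127 tested genes with a window, in 46.1% of the 735 genes called higher in members (defined below) and in 13 of the 18. Capitals mark AGGAAG or its reverse complement CTTCCT. The windows are those of *Emcn* (chr3:137340828-137341127, plus strand), *Adgrl4* (chr3:151437632-151437931, plus strand), one of 3 windows of *Egfl7* (chr2:26583615-26583914, plus strand), *Robo4* (chr9:37401722-37402021, plus strand) and *Cldn5* (chr16:18776597-18776896, plus strand), the last of which held no match.
Emcn: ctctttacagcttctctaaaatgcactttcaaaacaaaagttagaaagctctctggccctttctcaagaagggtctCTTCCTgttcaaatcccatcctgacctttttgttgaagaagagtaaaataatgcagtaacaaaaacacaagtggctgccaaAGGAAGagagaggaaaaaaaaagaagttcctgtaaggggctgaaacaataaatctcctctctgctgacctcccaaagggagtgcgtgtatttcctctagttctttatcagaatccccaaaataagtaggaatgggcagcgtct
Adgrl4: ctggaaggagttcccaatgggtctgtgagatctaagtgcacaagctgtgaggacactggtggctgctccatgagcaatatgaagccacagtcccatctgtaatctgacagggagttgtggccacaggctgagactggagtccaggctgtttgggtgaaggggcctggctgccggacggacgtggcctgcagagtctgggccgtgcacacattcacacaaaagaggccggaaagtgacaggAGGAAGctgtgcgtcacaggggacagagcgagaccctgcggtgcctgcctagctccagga
Egfl7: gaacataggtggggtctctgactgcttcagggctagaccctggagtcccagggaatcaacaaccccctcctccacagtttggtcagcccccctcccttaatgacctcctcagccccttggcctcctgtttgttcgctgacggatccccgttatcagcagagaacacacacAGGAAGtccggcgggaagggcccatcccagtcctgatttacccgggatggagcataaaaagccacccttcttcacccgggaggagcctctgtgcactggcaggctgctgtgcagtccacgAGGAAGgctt
Robo4: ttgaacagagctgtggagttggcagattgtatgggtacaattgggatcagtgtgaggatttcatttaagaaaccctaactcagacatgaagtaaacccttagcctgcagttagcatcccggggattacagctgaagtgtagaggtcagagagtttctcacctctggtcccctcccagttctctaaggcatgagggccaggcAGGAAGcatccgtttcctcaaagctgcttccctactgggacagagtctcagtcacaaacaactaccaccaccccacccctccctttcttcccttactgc
Cldn5: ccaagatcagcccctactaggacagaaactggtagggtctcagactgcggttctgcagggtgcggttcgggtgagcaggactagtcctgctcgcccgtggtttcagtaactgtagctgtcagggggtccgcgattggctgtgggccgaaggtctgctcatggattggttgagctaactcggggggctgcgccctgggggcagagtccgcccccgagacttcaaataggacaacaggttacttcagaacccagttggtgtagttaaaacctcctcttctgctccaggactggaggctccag
The matches lay -174 and -93 bases from the start site of *Emcn*, -10 from that of *Adgrl4* and -49 from that of *Robo4*. *Egfl7* had them at -80 and 41 in the window shown. A match is a run of letters and not a measured binding site.

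Members and other barcodes of each library were summed and compared with edgeR's quasi-likelihood test with the library as a block, so that the 4 libraries served as replicates of a difference common to them. A gene was called at a Benjamini-Hochberg adjusted p under 0.05 and a fold of at least 2. Of 16539 genes tested besides the 6 markers, 997 (6.03%) were called higher and 1051 (6.35%) lower in members, 910 and 995 of them in the same direction in all 4 libraries. The median log2 difference over all tested genes was -0.13. It was 0.10 without normalization beyond total counts, when 63.3% instead of 48.7% of the calls were higher. Other genes of endothelial cells go together with the markers that chose the members, so these calls describe the chosen barcodes and are not separate evidence of what they are.

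All 25 other pan-endothelial genes were called higher, with a median log2 difference of 7.48. Their summed level was 3980.0, 3705, 3706 and 3183 CPM in members and 121 to 182 CPM in the other barcodes. *Cldn5* (chr16:18776847-18778262, plus strand), the tight junction claudin of endothelium, led the genes called higher in all 4 libraries with at least 50 UMIs in members. It was at 210.1, 161, 139 and 378 CPM in members and 0 to 0.0411 CPM elsewhere, a log2 difference of 12.91 (SE 0.43, edgeR adjusted p = 1.25e-06). A *Cldn5* UMI was found in 16 of 22, 91 of 151, 13 of 58 and 109 of 149 members, so most members of iWAT_ASPC showed none. Among the other 19 genes with the largest differences, of those called higher in all 4 libraries with at least 50 UMIs in members, were the angiogenesis receptors *Robo4* (104, 72.3, 37.1 and 51.8 CPM in members, log2 12.36, SE 0.50, edgeR adjusted p = 3.59e-06) and *Tie1* (84.4, 63.2, 55.7 and 44.1 CPM, 11.01, SE 0.45, edgeR adjusted p = 3.59e-06). *Myct1*, an endothelial membrane protein, was at 126, 258, 332 and 261 CPM (log2 12.16, SE 0.33, edgeR adjusted p = 8.01e-07). All 4 lay in every library far above the other barcodes, with no overlap of the groups. Their direction in every library was fixed by the choice of genes.

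The *Gimap* family, GTPases best known from lymphocytes, had 4 genes that stood among the same 20 genes. *Gimap5* was the steadiest, at 47.1, 50.9, 46.8 and 48.0 CPM in members and 0.0103 to 0.0218 CPM in the other barcodes (log2 11.14, SE 0.30, edgeR adjusted p = 8.01e-07). *Gimap1* was at 62.8, 50.1, 31.8 and 63.9 CPM, *Gimap4* at 132, 96.2, 20.3 and 17.4 CPM and *Gimap8* at 17.7, 21.5, 13.3 and 14.6 CPM. The leukocyte gene *Ptprc*, which encodes CD45, had no UMI in any of the 380 members, so the *Gimap* transcripts did not come with this leukocyte marker. Others of the 20 varied widely between libraries. *Nts*, the precursor of the vasoactive peptide neurotensin, was at 11.8, 269, 72.5 and 362 CPM and *Kcne3*, a potassium channel subunit, at 132, 2.78, 11.49 and 1.39 CPM. *Kcne3* was thus highest in the 22 members of iWAT_DFAT, 13 of which had a UMI, and *Nts* was lowest there. The rest of the 20 were *Gpihbp1*, *Sox17* and *Tal1*, described below, and *Fam167b*, *Dipk2b*, *Sp5*, *Grrp1*, *Tmem252*, *Mall* and *1810006J02Rik*, with log2 differences from 10.62 to 12.07.

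**Figure D2:**
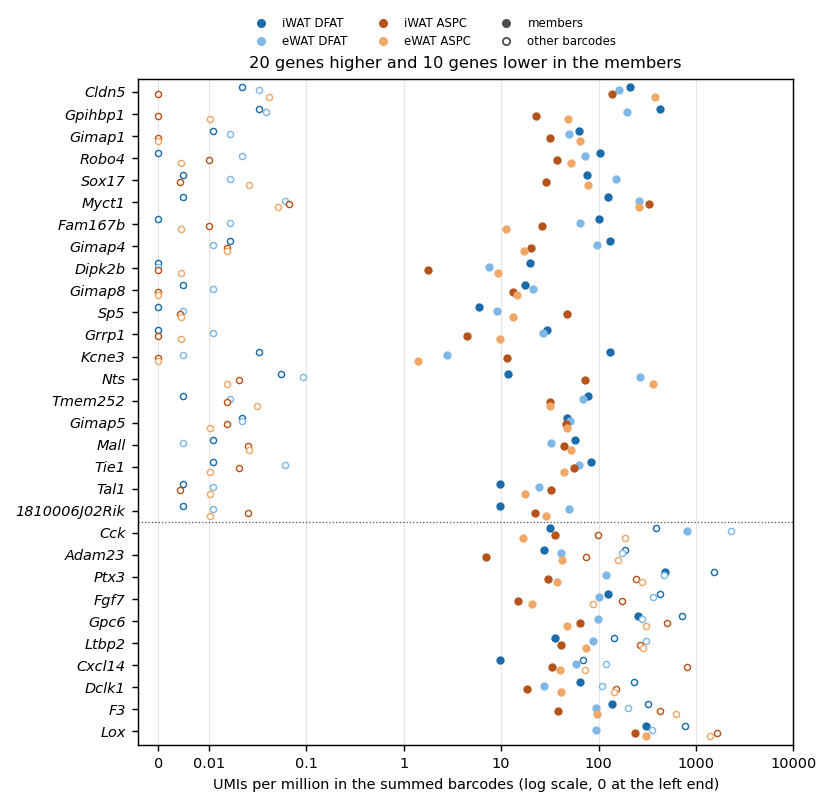
Levels of the 20 genes highest in members (above the dotted line) and the 10 lowest (under it), within the limits given in the text, in CPM on a log axis with 0 at the left, with a filled point for the members and an open point for the other barcodes of each library. Members and other barcodes are separated in every library for the genes higher in members, while genes lower in members, such as *Cck*, differ by smaller steps. The direction in every library was fixed by the choice of genes.

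Transcription factors of the endothelial programme were measured in full. Of 22 tested, 17 were called higher, none lower, and *Gata2*, *Klf2*, *Klf4*, *Nr2f2* and *Foxc2* were not called. *Erg*, the ETS factor that maintains endothelial identity, was at 100.1, 139, 94.6 and 85.1 CPM in members and 0.0546 to 0.161 CPM in the other barcodes (log2 9.72, SE 0.45, edgeR adjusted p = 7.14e-06). The SOXF factors *Sox17* (76.6, 151, 29.2 and 78.5 CPM, log2 12.24, SE 0.36, edgeR adjusted p = 8.13e-07) and *Sox18* (72.6, 56.0, 43.3 and 40.0 CPM, 8.74, SE 0.53, edgeR adjusted p = 2.96e-05) belonged here, as did *Tal1*, an early blood and vessel factor (9.82, 24.2, 32.7 and 17.7 CPM, 10.89, SE 0.44, edgeR adjusted p = 3.59e-06). *Fli1* had a smaller log2 difference of 4.25 (SE 0.16, edgeR adjusted p = 2.06e-06) and the other barcodes also carried 5.81 to 15.7 CPM. *Klf2* and *Klf4*, which laminar flow induces in vessels, were at 94.2, 80.7, 151 and 165 and at 88.4, 47.3, 132 and 100.1 CPM in members, against 92.1, 59.4, 85.7 and 118 and 123, 39.0, 122 and 94.4 CPM in the other barcodes. Their log2 differences of 0.23 (SE 0.15, edgeR adjusted p = 0.351) and -0.22 (SE 0.16, edgeR adjusted p = 0.401) did not pass the test.

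Receptors were likewise called higher in 14 of 16 genes tested. The VEGF receptors *Kdr* and *Flt1* stood at 183, 200.3, 75.1 and 60.8 and 273, 195, 164 and 83.7 CPM in members, with log2 differences of 7.07 (SE 0.99) and 3.67 (SE 0.82). *Tek*, the angiopoietin receptor TIE2, was at 35.3, 25.04, 52.1 and 25.7 CPM (log2 3.66, SE 0.32, edgeR adjusted p = 2.32e-04), and *Eng*, the BMP9 co-receptor endoglin, at 293, 606, 505 and 374 CPM (3.28, SE 0.26, edgeR adjusted p = 1.11e-04). *S1pr1*, the receptor for sphingosine-1-phosphate that steadies junctions, was at 161, 148, 194 and 126 CPM (4.82, SE 0.62, edgeR adjusted p = 0.00148). *Nrp1* (0.43) and *Bmpr2* (0.81), both widely expressed receptors, were not called. *Aplnr*, the apelin receptor of veins, had 28, 37, 3 and 0 UMIs in the members. It was not tested, because the filter on low counts asks for a minimum level in several of the sums.

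The ligands divided. Of 20 vascular ligands tested, 7 were called higher in members and 5 lower. *Edn1*, the vasoconstrictor endothelin-1, was at 324, 1040.5, 706 and 624 CPM in members and 2.89 to 28.4 CPM in the other barcodes (log2 5.83, SE 0.45, edgeR adjusted p = 1.07e-04). *Pdgfb*, which recruits pericytes, was at 171, 372, 159.9 and 216 CPM (8.94, SE 0.48, edgeR adjusted p = 1.40e-05), and *Angpt2*, the angiopoietin that endothelial cells release during sprouting, at 112, 529.8, 412 and 613 CPM (6.57, SE 0.41, edgeR adjusted p = 3.41e-05). *Apln* (5.34), *Pgf* (5.23), *Jag2* (7.48) and *Dll4* (8.004) were the other genes called higher. On the opposite side *Vegfd* was at 68.7, 6.76, 17.7 and 237 CPM in members against 262, 40.0, 155 and 758 CPM, a log2 difference of -2.48 (SE 0.25, edgeR adjusted p = 4.39e-04). *Vegfa* (-2.07), *Vegfc* (-1.57), *Angpt1* (-1.96) and *Sema3c* (-2.28) were also lower. Each of the 5 lower calls was lost in 1 of 13 alternative settings, the fit without the replicate block. The members thus carried the receptors *Kdr*, *Flt4* and *Tek*, and the other barcodes more of the ligands *Vegfa*, *Vegfc*, *Vegfd* and *Angpt1*.

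Junction and adhesion genes followed the first pattern. Of 16 junction genes 12 were called higher and 1, *Jam2* (log2 -1.11, SE 0.28), lower, a call that was lost in 7 of 13 alternative settings. Of 8 genes for leukocyte adhesion 5 were higher. *Icam1* was at 35.3, 176, 142 and 71.2 CPM in members and 3.73 to 11.3 CPM in the other barcodes (3.55, SE 0.57, edgeR adjusted p = 0.00392), *Selp* at 5.89, 263, 156 and 64.3 CPM (8.37, SE 1.17, edgeR adjusted p = 0.00220) and *Sele*, the cytokine-induced E-selectin, at 1.96, 64.0, 15.9 and 2.78 CPM (7.39, SE 0.85, edgeR adjusted p = 8.50e-04). The selectins were lowest in iWAT_DFAT and highest in eWAT_DFAT.

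Genes of all vessel types were present. Of 15 arterial genes tested 11 were called higher, of 10 venous genes 7, of 14 adipose capillary genes 11 and of 10 lymphatic genes 5, with median log2 differences of 5.78, 4.51, 4.94 and 4.16. Some lymphatic calls depended on the setting. The call of *Tbx1*, higher in 2 of the 4 libraries, was lost in 6 of 13 alternative settings, that of *Prox1*, higher in 3 of 4, in 3 of 12, and that of *Lyve1* in 2 of 12. In eWAT_DFAT, where *Prox1* counted as higher by CPM, 1.32% of members and 1.98% of the other barcodes had a UMI. DESeq2 called 4 lymphatic genes higher, with a median of 3.08. The summed capillary list stood at 6142, 6818, 2939 and 3144 CPM, so that both DFAT libraries lay above both ASPC libraries, and the lymphatic list at 277, 162, 647 and 952 CPM, with the reverse order. In the other barcodes the capillary list was at 992, 2775, 1290 and 1677 CPM and the lymphatic list at 342, 324, 337 and 283 CPM. The lymphatic sum of the DFAT members was thus below that of the other barcodes. *Fabp4*, which the other barcodes also carried, made up most of the capillary sum in both DFAT libraries. The arterial list ran at 1213, 1127, 771 and 712 CPM and the venous list at 522, 1232, 878 and 648 CPM.

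**Figure D3:**
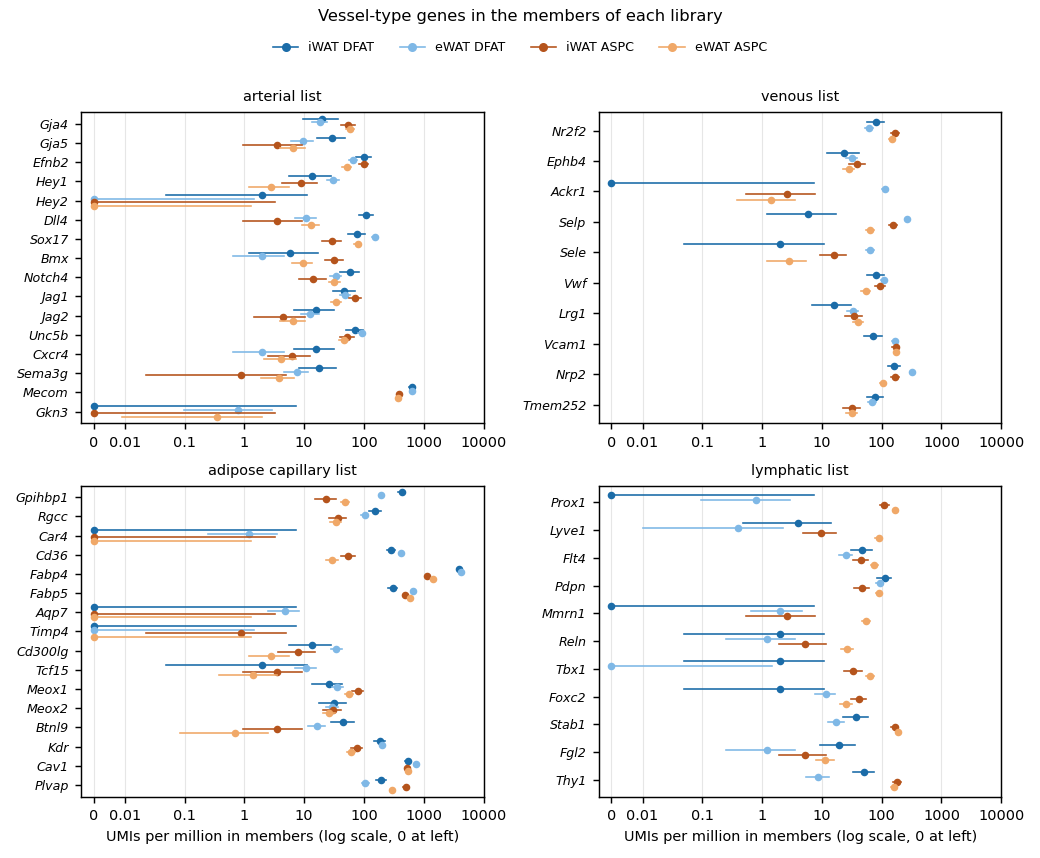
Levels of the genes of 4 vessel-type lists in the members of each library, in CPM on a log axis with 0 at the left and exact Poisson 95% intervals. In the capillary panel *Gpihbp1* and *Cd36* are higher in the DFAT libraries, and in the lymphatic panel *Prox1*, *Stab1* and *Tbx1* are higher in the ASPC libraries.

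Among capillary genes, *Gpihbp1* (chr15:75596628-75599481, plus strand) was at 428, 196, 23.0 and 48.3 CPM in members and at most 0.0382 CPM in the other barcodes, a log2 difference of 12.70 (SE 0.37, edgeR adjusted p = 8.01e-07). It had a UMI in 17 of 22, 90 of 151, 7 of 58 and 31 of 149 members. *Cd36*, the fatty acid translocase, was at 285, 422, 54.8 and 29.5 CPM and *Btnl9*, a capillary butyrophilin, at 45.2, 16.3, 3.53 and 0.695 CPM, again higher in both DFAT libraries. *Fabp4*, the fatty acid carrier of capillaries and adipocytes, was the most abundant of the list at 3935, 4276, 1119 and 1451 CPM, but it also stood at 317, 2102, 75.1 and 317 CPM in the other barcodes and at 350.0, 2195, 81.2 and 307 CPM in free RNA (log2 2.48, SE 0.46, edgeR adjusted p = 0.00807). The difference of *Gpihbp1* between members and others did not itself differ between DFAT and ASPC libraries by the test, at a log2 difference of differences of 0.70 (SE 1.59, edgeR adjusted p = 0.937). That of *Cd36* had the opposite sign and did not pass either, at -1.16 (SE 0.63, edgeR adjusted p = 0.460), with 9.15, 69.5, 0.565 and 2.24 CPM of *Cd36* in the other barcodes. *Car4* and *Timp4*, capillary genes of fat tissue in vivo, had 0, 3, 0 and 0 and 0, 0, 1 and 0 UMIs in the members.

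Venous genes did not share one order of libraries. *Ackr1*, highest in eWAT_DFAT, was at 0, 115, 2.65 and 1.39 CPM and had a UMI in 0, 19, 2 and 1 members. In eWAT_DFAT 18 of the 19 members with *Ackr1* also had *Selp*, which 22 members carried, so these genes marked nearly one set of barcodes there. *Selp* had a UMI in 1, 22, 34 and 48 members. *Vwf*, the clotting factor stored with P-selectin, was steadier at 80.5, 109.7, 92.8 and 53.9 CPM (log2 8.18, SE 0.27, edgeR adjusted p = 1.25e-06).

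Among arterial genes *Dll4*, the Notch ligand of arterial and tip cells, was at 108, 10.7, 3.53 and 12.9 CPM, and 15 of the 22 members of iWAT_DFAT had a UMI, against 18 of 151, 2 of 58 and 29 of 149. *Gja4*, connexin 37, was at 19.6, 18.3, 54.8 and 58.0 CPM, *Gja5*, connexin 40, at 29.5, 9.54, 3.53 and 6.602 CPM and *Hey1*, a Notch target, at 13.7, 30.6, 8.84 and 2.78 CPM. The Notch target *Hey2* had 1, 0, 0 and 0 UMIs. *Dll4* and *Gja4* therefore did not share one order of libraries.

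The lymphatic gene *Prox1* (chr1:190118035-190170714, minus strand) divided the cultures. It had a UMI in 0 of 22 members of iWAT_DFAT (an upper exact 95% limit of 15.4%), 2 of 151 in eWAT_DFAT (1.32%), 20 of 58 in iWAT_ASPC (34.5%, 22.5 to 48.1) and 69 of 149 in eWAT_ASPC (46.3%, 38.1 to 54.7). After thinning to 5000 UMIs the shares were 0, 1.32, 25.9 and 39.6%, against 0.605, 0.253, 0.272 and 0.273% of the other barcodes. The source of the *Prox1* UMIs in the other barcodes was not tested. The levels were 0, 0.795, 111 and 167 CPM in members and 1.08, 0.716, 0.565 and 0.652 CPM in the other barcodes. By edgeR the difference between members and other barcodes itself differed between DFAT and ASPC libraries, at a log2 difference of differences of -7.93 (SE 0.57, edgeR adjusted p = 9.21e-10). Without members with a *Pdgfra* UMI the shares were 0, 1.67, 37.3 and 50.8%, and with 4 or more markers 0, 0.685, 33.9 and 49.6%.

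**Figure D4:**
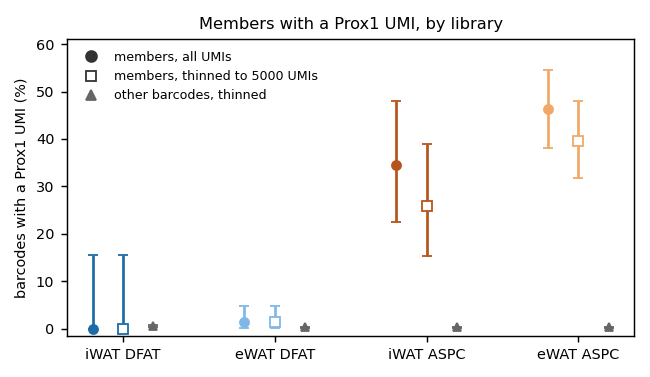
Share of barcodes with a *Prox1* UMI in each library, as circles for members with all UMIs, squares for members thinned to 5000 UMIs and triangles for thinned other barcodes, with exact binomial 95% intervals. After thinning, members of the ASPC libraries stand at 25.9 and 39.6%, and those of the DFAT libraries at 0 and 1.32%.

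Of the 10 lymphatic genes tested, 4 had a lower log2 difference in DFAT than in ASPC libraries by the test and 0 a higher one. They were *Prox1*, *Stab1*, *Lyve1* and *Tbx1*. *Stab1*, the scavenger receptor stabilin-1, was at 37.3, 17.5, 165 and 191 CPM (difference of differences -5.13, SE 0.33, edgeR adjusted p = 3.11e-10). *Lyve1*, the hyaluronan receptor, was at 3.93, 0.397, 9.72 and 89.3 CPM (-4.30, SE 1.16, edgeR adjusted p = 0.0292), and *Tbx1*, a T-box factor of lymphatic growth, at 1.96, 0, 33.6 and 64.3 CPM (-7.16, SE 1.37, edgeR adjusted p = 0.00166). These genes were thus higher in the ASPC members, *Lyve1* mainly in eWAT_ASPC. *Mmrn1*, at 0, 1.99, 2.65 and 54.6 CPM, did not pass the filter on low counts and was not tested. *Flt4*, the receptor for VEGF-C that blood vessels in culture can also express, was at 47.1, 25.4, 45.1 and 74.7 CPM, and its difference of -0.76 (SE 0.52, edgeR adjusted p = 0.623) did not pass. *Pdpn*, podoplanin, which stromal cells share, was lower in members than in the other barcodes, at 112, 93.0, 46.8 and 90.3 against 241, 288, 75.7 and 139.7 CPM (log2 -1.24, SE 0.18, edgeR adjusted p = 0.00257). Within the members, *Pdpn* was higher in both DFAT libraries than in both ASPC libraries. *Ccl21a* was not analysed here.

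To see what went with *Prox1*, members of each ASPC library were split by a *Prox1* UMI, a division chosen after its values were seen and not tested. Of 8100 genes with 50 or more UMIs in these members, 87 (1.07%) were past 4-fold higher and 56 (0.691%) past 4-fold lower in both libraries, on CPM with 1 added. *Gja4*, named an arterial gene above, had the largest ratio of these in the library where its ratio was smaller, at 171 against 2.56 CPM in iWAT_ASPC and 143 against 3.43 CPM in eWAT_ASPC. *Stab1* was at 375 against 70.5 CPM in iWAT_ASPC and 415 against 46.3 CPM in eWAT_ASPC. *Cldn5*, not past 4-fold in eWAT_ASPC, was at 438 against 3.85 CPM in iWAT_ASPC and 689 against 177 CPM in eWAT_ASPC. Of the 13 members of iWAT_ASPC with a *Cldn5* UMI, 10 had a *Prox1* UMI. *Lyve1* was at 31.3 against 0 CPM in iWAT_ASPC and 185 against 28.0 CPM in eWAT_ASPC, and the secreted glycoprotein *Reln* at 17.1 against 0 CPM in iWAT_ASPC and 62.1 against 3.43 CPM in eWAT_ASPC. *Nts* was at 205 against 12.8 CPM in iWAT_ASPC and 776 against 94.8 CPM in eWAT_ASPC, and *Lrg1*, placed in the venous list, at 93.9 against 7.69 CPM in iWAT_ASPC and 101 against 1.71 CPM in eWAT_ASPC. *Selp* had a UMI in 15 of the 20 members with *Prox1* and 34 of all 58 in iWAT_ASPC, and in 38 of the 69 and 48 of all 149 in eWAT_ASPC. Other genes of the arterial and venous lists lay on the opposite side. The arterial *Sox17* was at 0 against 42.3 CPM in iWAT_ASPC and 23.1 against 114 CPM in eWAT_ASPC, and the venous *Vwf* at 54.04 against 110.3 CPM in iWAT_ASPC and 10.6 against 81.7 CPM in eWAT_ASPC. The summed arterial list was at 836 against 742 CPM in iWAT_ASPC and 476 against 864 CPM in eWAT_ASPC, so its direction differed between the libraries. The venous list was at 1041 against 805 CPM in iWAT_ASPC and 700.1 against 614 CPM in eWAT_ASPC, and the lymphatic list at 882 against 379 CPM in iWAT_ASPC and 1528 against 308 CPM in eWAT_ASPC.

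On the other side of the split, *Meox2*, a homeobox factor of adipose and heart capillaries, was at 0 against 43.6 CPM in iWAT_ASPC and 0.887 against 42.3 CPM in eWAT_ASPC. The summed capillary list did not follow *Meox2*, at 3123 against 2856 CPM in iWAT_ASPC and 3143 against 3145 CPM in eWAT_ASPC. *Apln* was at 102 against 486 CPM in iWAT_ASPC and 63.0 against 532 CPM in eWAT_ASPC, *Pgf* at 17.1 against 128 CPM in iWAT_ASPC and 24.0 against 228 CPM in eWAT_ASPC and *Cxcl12* at 88.2 against 464 CPM in iWAT_ASPC and 153 against 709 CPM in eWAT_ASPC. These 3 ligands were therefore higher in members without *Prox1*. Stromal and contractile RNA moved with the split as well. The stromal list summed to 862 against 2270 CPM in iWAT_ASPC and 1642 against 2910 CPM in eWAT_ASPC, and *Acta2* was at 424 against 3435 CPM in iWAT_ASPC and 1190 against 3844 CPM in eWAT_ASPC. Its part in these differences was not tested. Of the rule's own markers, *Cd93* was at 182 against 323 CPM in iWAT_ASPC and 79.0 against 372 CPM in eWAT_ASPC, and *Adgrl4* at 91.0 against 312 CPM in iWAT_ASPC and 86.1 against 236 CPM in eWAT_ASPC. *Egfl7* went the other way, at 1021 against 519 CPM in iWAT_ASPC and 1969 against 761 CPM in eWAT_ASPC. *Pecam1*, *Cdh5* and *Emcn* differed in direction between the libraries. The 6 markers summed to 3948 against 3899 CPM in iWAT_ASPC and 4009 against 3018 CPM in eWAT_ASPC. Median depths of the groups were 16255.5 UMIs with and 15997 without *Prox1* in iWAT_ASPC, and 13851 and 17275.5 in eWAT_ASPC, so members with *Prox1* were not the deeper ones in eWAT_ASPC. A *Pdgfra* UMI was found in 1 of 20 and 6 of 38 members in iWAT_ASPC, and in 5 of 69 and 18 of 80 in eWAT_ASPC.

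**Figure D5:**
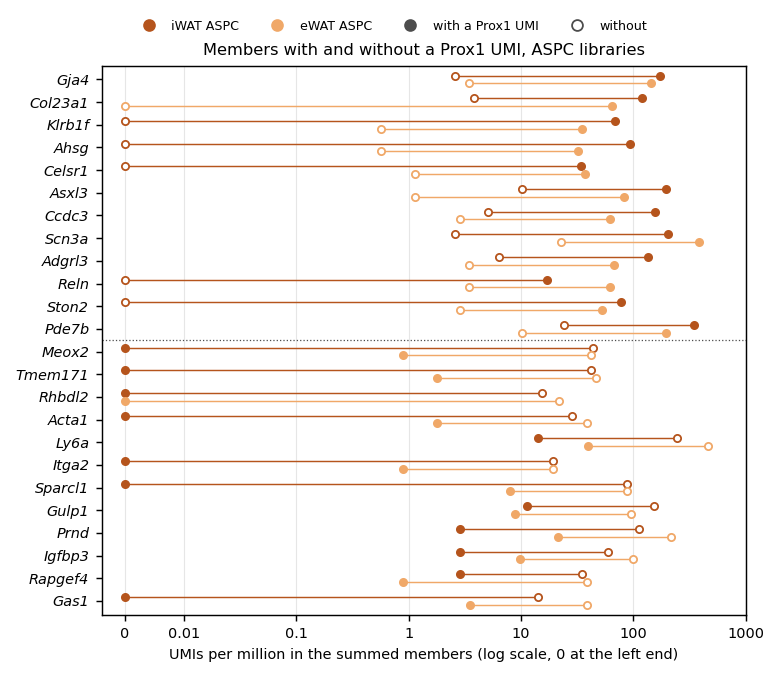
Levels of the 12 genes with the largest ratios in each direction, in CPM on a log axis with 0 at the left, with filled points for members with and open points for members without a *Prox1* UMI in the ASPC libraries. *Gja4* and *Reln* are higher in members with *Prox1* and *Meox2* in those without, in both depots.

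Over all tested genes, the signed log2 difference between members and other barcodes was larger in DFAT than in ASPC libraries for 428 genes (2.59%). It was smaller for 240 (1.45%), together 4.04%. A gene less lowered in DFAT than in ASPC members thus counts as larger, such as *Ptx3* (1.31, SE 0.27, edgeR adjusted p = 0.00313). DESeq2 called 194 larger and 135 smaller. With members carrying a *Pdgfra* UMI left out, edgeR called 367 and 338. Such a difference of differences moves with the other barcodes as well as with the members. For *Acta2*, smooth muscle actin, members were at 823, 2219, 2499 and 2805 CPM and the other barcodes at 393, 2864, 8799 and 9393 CPM (difference of differences 2.28, SE 0.32, edgeR adjusted p = 3.72e-05), so the other barcodes spanned a wider range than the members. Without members with a *Pdgfra* UMI the levels of *Acta2* were 243, 1889, 1637 and 1121 CPM, below the other barcodes in iWAT_DFAT too. *Ccl2*, an NF-κB target chemokine, was at 1374, 2295, 1579 and 1091 CPM in members and 2820.5, 3041, 249 and 105 CPM in the others (-3.58, SE 0.27, edgeR adjusted p = 2.38e-09). *Lcn2*, the acute phase protein lipocalin-2, was at 64.8, 218, 61.9 and 114 and 179.7, 148, 0.192 and 1.55 CPM (-7.18, SE 0.52, edgeR adjusted p = 9.21e-10). Both were above the other barcodes in the ASPC libraries and below them in iWAT_DFAT.

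For other genes the members differed as well. *Apln* was at 175, 176, 367 and 349 CPM, with 1.80 to 30.0 CPM in the others (-3.33, SE 0.44, edgeR adjusted p = 1.45e-05), so the others spanned a wider range than the members. *Gja4* followed with -3.95 (SE 0.71, edgeR adjusted p = 8.76e-04), with 0.0202 to 0.257 CPM in the others. *Pdgfa*, platelet-derived growth factor A, was at 239.5, 256, 62.7 and 85.8 CPM in members and 34.4, 67.8, 67.5 and 69.3 CPM in the others (2.38, SE 0.30, edgeR adjusted p = 1.10e-05), higher in both DFAT libraries. *Nrp1* was at 232, 188, 114 and 48.3 CPM in members and 65.9, 95.95, 86.05 and 72.3 CPM in the others (1.63, SE 0.33, edgeR adjusted p = 0.00307), and *Kdr* at 183, 200.3, 75.1 and 60.8 against 0.0983, 0.579, 1.51 and 1.56 CPM (4.06, SE 0.45, edgeR adjusted p = 9.64e-07), so that the others of *Kdr* also moved, in the opposite direction. These genes for receptors of VEGF thus stood higher in DFAT members. Among called genes, the 3 per direction with the largest differences rested on few UMIs, so that their fitted sizes depend on the prior count. *Celsr1*, a planar polarity cadherin that lymphatic valves use, had 0, 0, 12 and 44 UMIs in members, *Syt7* 0, 0, 1 and 6 and *Slc45a3* 0, 0, 13 and 23. *Slc52a3* had 2, 5, 0 and 0, *Tmem255b* 4, 17, 2 and 5 and *Krt20* 3, 6, 2 and 0.

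Between depots only 2 genes (0.0121%) were called, both larger in iWAT, and 0 smaller. At an unadjusted p under 0.05 edgeR gave 224 larger and 164 smaller, and DESeq2 called 15 and 3. *Klhl6*, a ubiquitin ligase adaptor of lymphoid cells and endothelium, was at 35.3, 35.4, 105 and 44.1 CPM in members and 0.00546, 2.39, 0.0757 and 1.32 CPM in the other barcodes, a difference of differences of 6.39 (SE 0.65, edgeR adjusted p = 0.0123). The call of *Klhl6* was lost without iWAT_ASPC. *Krt18*, a keratin of epithelium and mesothelium, was at 0, 0.795, 162 and 36.5 CPM in members and 0.0109, 2.54, 0.283 and 20.3 CPM in the others (8.66, SE 0.90, edgeR adjusted p = 0.0123). Its members' UMIs were nearly all in the ASPC libraries, and without iWAT_ASPC the value turned to -3.06 (edgeR adjusted p = 1). The mesothelial gene *Gpm6a* went the same way by value, at 0, 0.795, 74.2 and 29.5 CPM, while *Msln*, *Upk3b* and *Lrrn4*, which define mesothelium, had 0, 0, 0 and 4, 0, 0, 0 and 8 and 0, 0, 0 and 10 UMIs in the members.

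Several positional genes of the depots were lower in the members. Of 12 inguinal transcription factors tested 6 were called lower and of 10 epididymal ones 5, with none higher, while DESeq2 called 5 and 3 lower. *Tbx15*, an inguinal factor, was at 49.1, 0.397, 14.1 and 0.695 CPM in members and 91.4, 0.371, 103 and 0.529 CPM in the others (log2 -1.80, SE 0.49, edgeR adjusted p = 0.0406, lost in 6 of 13 alternative settings). *Wt1*, an epididymal factor that mesothelium shares, was at 0, 3.97, 0 and 8.69 and 0.131, 20.3, 0.0151 and 35.2 CPM (-2.42, SE 0.31, edgeR adjusted p = 0.00145), and *Tcf21* at 0, 1.99, 0 and 7.30 and 0.0109, 4.19, 0.0252 and 19.1 CPM (-1.54, SE 0.39, edgeR adjusted p = 0.0287). In members as in the other barcodes, *Tbx15* was higher in the iWAT libraries, and *Wt1* and *Tcf21* in the eWAT libraries. As summed lists, the inguinal factors kept this order in the members and the epididymal ones did not. The inguinal list was at 204, 63.6, 84.0 and 44.5 CPM in members and 503, 149, 515 and 144 CPM in the others. The epididymal list was at 74.6, 93.0, 117 and 81.7 CPM in members and 116, 190, 78.5 and 225 CPM in the others. The members also carried stromal RNA. Without members with a *Pdgfra* UMI, *Tbx15* was at 10.4, 0.644, 11.2 and 0.989 CPM, *Wt1* at 0, 2.58, 0 and 3.46 CPM and *Tcf21* at 0, 0, 0 and 1.48 CPM, on at most 10 UMIs each in a library. The part that carried stromal RNA had in this depot order was not tested.

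Stromal genes were measured in the members too, and whether these transcripts came from the members themselves or from other cells was not tested. Of 15 tested, 12 were called lower and none higher, with a median log2 difference of -1.73. Their sum was 4807, 1017, 1833 and 2414 CPM in members and 8663, 3109, 9403 and 8469 CPM in the others. A *Pdgfra* UMI was present in 6 of 22, 31 of 151, 7 of 58 and 23 of 149 members, and these members were deeper, with medians of 43186.5, 31695, 38128 and 35074 UMIs. Without them, the members held a median of 8.74, 11.6, 11.6 and 5.43% of the level of the stromal genes in the other barcodes, against 59.2, 33.8, 16.6 and 28.6% with them. Single stromal genes ranged widely and still reached 176, 106, 84.0 and 129% without those members. *Pdgfra* is itself one of the 15 genes, so a drop is in part fixed by the choice of barcodes. The part that such barcodes had in each result was not tested one by one, but without them 958 of the 997 higher and 943 of the 1051 lower calls remained. The totals were then 1085 and 1369.

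Among genes called lower in all 4 libraries with at least 50 CPM in the other barcodes of each, *Cck*, the peptide cholecystokinin, had the largest difference, at 31.4, 814, 35.3 and 16.7 CPM in members against 388, 2286, 99.05 and 188 CPM (log2 -2.66, SE 0.40, edgeR adjusted p = 0.00297). *Ptx3*, a pentraxin of innate immunity, was at 485, 120.0, 30.0 and 37.5 against 1528, 475, 245 and 283 CPM (-2.58, SE 0.28, edgeR adjusted p = 6.23e-04), and *Fgf7*, keratinocyte growth factor, at 124, 101, 15.02 and 20.8 against 432, 362, 175 and 88.5 CPM (-2.45, SE 0.29, edgeR adjusted p = 9.85e-04). *Lox*, which crosslinks collagen, had a log2 difference of -2.28, *F3*, tissue factor, of -2.32 and *Cxcl14*, a chemokine of stroma, of -2.34, the last a call lost in 2 of 13 alternative settings. The calls of *Cck*, *Ptx3* and *Fgf7* were each lost in 1 of 13. *Adam23*, *Gpc6*, *Ltbp2* and *Dclk1* made up the 10, between -2.64 and -2.34. These differences were smaller on the log2 scale than those of the 20 genes named as higher.

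Immune, platelet and Schwann markers were scarce in the members. Among 11 immune genes, *Ptprc*, *C1qa*, *C1qb*, *Cd52* and *Tyrobp* had no UMI in the members, which allows up to 3 UMIs, and the list summed to 5.30 to 9.82 CPM, against 19.3 to 69.9 CPM in the others. Of its 5 tested genes *Lyz2* and *Csf1r* were called lower, the former call lost in 2 of 13 alternative settings. The platelet list summed to 0 to 5.30 CPM and the Schwann list to 0 to 1.99 CPM, with none of 3 tested genes called in either by edgeR or DESeq2. None of 8 pericyte genes was called by edgeR, at 161, 136, 7.07 and 100.4 CPM in members against 78.3, 81.6, 85.5 and 277 CPM. Their median was 0.34 by edgeR, 0.58 without normalization beyond total counts and -0.06 by DESeq2, which called 2 of them higher. Of 5 tested mesothelial genes *Wt1* alone was called, lower, a call that was lost in 2 of 13 alternative settings, and DESeq2 called 0. Their list summed to 3.93, 15.9, 245 and 99.4 CPM, highest in iWAT_ASPC, where the others had 72.0 CPM.

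Of 9 adipocyte genes tested, *Pnpla2*, a triglyceride lipase, was called higher (log2 1.17, SE 0.23, lost in 2 of 13 alternative settings) and *Lpl*, lipoprotein lipase, lower at 153, 196, 28.3 and 85.5 CPM against 488, 402, 137 and 294 CPM (-1.88, SE 0.22, edgeR adjusted p = 8.77e-04). Their median was -0.00 and changed sign with the scaling. *Lep* had no UMI in the members. The partner of *Lpl* on the capillary wall, *Gpihbp1*, was thus carried by the members and *Lpl* itself more by the other barcodes. Of 14 lipid handling genes 6 were higher and 2, *Lpl* and *Lrp1*, lower.

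Cycling genes were carried by members of all libraries. None of 18 S phase and none of 18 G2 and M phase genes was called between members and other barcodes, with median log2 differences of 0.12 and -0.48. At an unadjusted p under 0.05 edgeR gave 1 higher and 1 lower S phase gene and 0 higher and 5 lower G2 and M genes, and DESeq2 called none. The G2 and M list summed to 766, 656, 1219 and 1597 CPM in members and 1301, 1266, 1347 and 963 CPM in the others. *Mki67*, a marker of proliferation, was at 60.9, 62.00, 114 and 149 CPM and had a UMI in 7, 31, 28 and 66 members. After thinning, 13.6, 11.3, 31.0 and 30.2% of members and 29.9, 27.5, 27.1 and 18.7% of other barcodes had one. For 7 of the 18 G2 and M genes and 3 of the 18 S phase genes, the signed log2 difference was lower in DFAT than in ASPC libraries. For *Mki67* the difference of differences was -1.38 (SE 0.32, edgeR adjusted p = 0.0101).

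Genes that endothelial cells take on when they turn mesenchymal were divided. Of 14 tested, 7 were lower in members and 2 higher. *Snai2* was at 17.7, 8.74, 5.30 and 5.21 CPM in members against 40.5, 25.2, 39.7 and 18.9 CPM (log2 -2.05, SE 0.29, edgeR adjusted p = 0.00238) and *Twist1* at 29.5, 28.6, 19.4 and 16.7 against 79.4, 73.9, 80.9 and 54.1 CPM (-1.86, SE 0.19, edgeR adjusted p = 4.72e-04). *Zeb1* was higher at 373, 311, 205 and 183 against 76.3, 81.6, 74.4 and 88.5 CPM (1.46, SE 0.24, edgeR adjusted p = 0.00433), as was *Tgfb2* (1.13, SE 0.30), whose call was lost in 5 of 13 alternative settings. Contractile *Acta2* and *Tagln* were not called between members and others. *Tagln* was at 941, 4303, 2158 and 2967 CPM in members, a log2 difference of -0.30 (SE 0.48, edgeR adjusted p = 0.742).

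Of 14 basement membrane genes 3 were higher, namely *Col18a1* at 481, 332, 222 and 216 CPM against 31.9, 16.7, 30.6 and 12.2 CPM (log2 3.596, SE 0.27, edgeR adjusted p = 9.15e-05), *Lama4* (1.41) and *Agrn* (1.32). Of 16 tip cell genes 8 were higher, with *Esm1*, a proteoglycan of sprouting vessels, at 37.3, 77.9, 247 and 55.9 CPM (5.08, SE 0.49, edgeR adjusted p = 3.58e-04). Of 19 NF-κB and acute phase genes 2, *Icam1* and *Sele*, were higher and 5 lower. Of 13 interferon genes 3 were higher, among them *Bst2*, tetherin, at 253, 258, 201 and 385 against 85.1, 131, 31.2 and 93.7 CPM (1.595, SE 0.24, edgeR adjusted p = 0.00318), and 1, *Ifit1*, lower, a call lost in 3 of 13 alternative settings. Of 11 hypoxia and glycolysis genes 2 were higher and 2, *Vegfa* and *Hk2* (log2 -1.57), lower, with summed levels of 2091 to 2427 CPM in members and 2060 to 2300 CPM in the others.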

How the data were processed

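Single cells of 4 libraries, 1 per condition, were profiled with droplet 3′ RNA sequencing of 10x Genomics. The deposited values are UMI counts per gene and barcode that the authors made with Cell Ranger (7.0.0 per the submitters' notes; headers name 7.1.0, and 4 for iWAT_ASPC) against mm10, with introns. They precede the study's CellBender, DoubletFinder and Harmony steps, none of which was run here. The 6 markers, the 28 gene lists and the members were chosen with earlier results of these data known. Counts of members and other barcodes were summed per library and tested in edgeR 4.0.16 (R 4.3.3; TMM, filterByExpr, quasi-likelihood, library as block), and interactions of type with culture and with depot gave the differences of differences. Each library gave both sums, so the block holds them together. The SE printed with an edgeR value is the size of the log2 difference over the square root of the test's F statistic. For genes without UMIs in some sums, the log2 difference depends on the prior count, so that the SE is approximate. DESeq2 1.42.0 was an alternative. Where nothing stated separate cultures, p-values measured the spread between these 4 libraries. CPM intervals were exact Poisson and shares exact Clopper-Pearson. Scrublet came with scanpy 1.11.5 (Python 3.11.15). On simulated counts of 15916, 15888 and 15892 genes with log2 changes of 2 the test recovered 100%, 61% and 52% of changed genes for the type, culture and depot comparisons, and at 3 it recovered 100%, 96% and 96%. The changed genes were drawn from the more abundant ones, by UMIs that came mostly from the other barcodes, and both types started from the same level. Genes nearly absent from the other barcodes were thus never drawn, and these percentages do not cover them.

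Named were the 6 markers, the 20 genes highest and 10 lowest in members that went 1 way in all 4 libraries (with 50 UMIs in members, or 50 CPM in the others), the 4 most abundant genes of each list and those against its majority, all genes of the ligand, receptor, transcription factor and vessel-type lists, the 3 largest called interactions per direction, and *Pdgfra*, *Pdgfrb*, *Col1a1* and *Ptprc*. Genes of the *Prox1* split outside this rule were chosen after their values were seen. Promoter windows and their sequences came from RefSeq.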

Additional observations from a re-analysis of the deposited data

Results flagged for a closer look

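The signed log2 difference between members and other barcodes was itself tested between cultures. By edgeR it was larger in DFAT than in ASPC libraries for 428 genes, and by DESeq2 for 194. By DESeq2 it was smaller for 135 genes, and by edgeR for 240. *Prox1* was among the latter, at -7.93 (SE 0.57, edgeR adjusted p = 9.21e-10), and that it was not detected in the members of iWAT_DFAT rests on 22 barcodes. Among called genes, the largest values in that test were those of *Syt7* (-13.44, SE 3.31, edgeR adjusted p = 0.0165), *Celsr1* (-13.39, SE 3.203, edgeR adjusted p = 0.0137) and *Slc45a3* (-12.77, SE 3.45, edgeR adjusted p = 0.0311), which had no UMI in DFAT members. *Slc52a3* (14.45, SE 3.71, edgeR adjusted p = 0.0225), *Tmem255b* (7.81, SE 2.05, edgeR adjusted p = 0.0262) and *Krt20* (6.68, SE 1.47, edgeR adjusted p = 0.00669) lay on the other side, with at most 17 UMIs in the members of any library. None of these 6 kept its call in every alternative.

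Between depots the same test called 2 genes, *Krt18* at 8.66 (SE 0.90, edgeR adjusted p = 0.0123) and *Klhl6* at 6.39 (SE 0.65, edgeR adjusted p = 0.0123). Both calls were lost without iWAT_ASPC.

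Barcodes below the depth limit were not used in the comparisons. Among those with at least 500 but under 5000 UMIs, 21 of 524 in eWAT_DFAT (4.01%) had 3 or more of the markers, against 0 of 167, 3 of 419 and 2 of 608 in iWAT_DFAT, iWAT_ASPC and eWAT_ASPC.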

How the results depend on the processing

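With 2 or more markers instead of 3 the shares of members were 1.11, 3.76, 2.14 and 4.00% in iWAT_DFAT, eWAT_DFAT, iWAT_ASPC and eWAT_ASPC and 2.68% in all. Without members with a *Pdgfra* UMI the share was 1.87% in eWAT_DFAT and 1.11% in all, and after thinning 1.21% in all. Without the replicate block, which here pairs the sums of 1 library, 828 genes were higher and 425 lower in members, and 66.1% of the calls were higher, while 35 of the named genes lost their call. Leaving out 1 library gave 823 to 1020 higher and 769 to 1004 lower genes. In the other alternatives both counts stayed within 1.5 times of 997 and 1051.

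For the difference between cultures DESeq2 called 194 and 135 genes in place of 428 and 240, and leaving out 1 library, when a lone library is assumed to vary like the others, gave 303 to 542 and 181 to 271. Without members with a *Pdgfra* UMI, 367 and 338 genes were called, of which 319 and 207 were shared with the 428 and 240. The share of calls that were larger was then 52.1% instead of 64.1%. Without members with a *Prox1* UMI, an alternative chosen after seeing the data, 343 and 287 genes were called, of which 284 and 154 were shared with the 428 and 240. *Celsr1* then no longer passed.

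The 2 calls between depots were the least settled. DESeq2 gave 15 and 3, no filter on low counts 66 and 30, and the members without *Prox1* 18 and 9. Leaving out 1 library gave 0 to 68 and 0 to 38, the 0 without iWAT_ASPC, when *Krt18* reversed to -3.06 (edgeR adjusted p = 1). Without eWAT_ASPC *Krt18* was at 10.4. The cause of these changes was not tested. The 22 members of iWAT_DFAT limit what is detectable there: a gene at 0 may have a level of up to the limit that 3 UMIs allow.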

Other observations

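Some genes that went with *Prox1* in the ASPC libraries belonged to none of the lists and were chosen after their values were seen. *Ahsg*, the liver glycoprotein fetuin-A, was at 93.9 against 0 CPM in iWAT_ASPC and 31.9 against 0.571 CPM in eWAT_ASPC in members with against members without a *Prox1* UMI. *Klrb1f*, a lectin receptor known from natural killer cells, was at 68.3 against 0 CPM in iWAT_ASPC and 34.6 against 0.571 CPM in eWAT_ASPC. The sodium channel *Scn3a* was at 202 against 2.56 CPM in iWAT_ASPC and 382 against 22.8 CPM in eWAT_ASPC and the collagen *Col23a1* at 119 against 3.85 CPM in iWAT_ASPC and 64.8 against 0 CPM in eWAT_ASPC. Each was higher with *Prox1* in both depots, and none of them was tested.

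In iWAT_DFAT, where the other barcodes carried 3121 CPM of the acute phase gene *Saa3*, the members carried 754 CPM, and across the 4 libraries the members were at 754, 485, 0 and 3.82 CPM. Without members with a *Pdgfra* UMI, 6 of the 22 in iWAT_DFAT, the levels were 31.2, 422, 0 and 0 CPM, so most of the value in iWAT_DFAT came from those 6 barcodes. *Cxcl12*, the ligand of CXCR4, was at 491, 1793, 347 and 491 CPM in members and 583, 124, 168 and 477 CPM in the others, so that eWAT_DFAT stood apart in the members and not in the others (log2 0.82, SE 0.62, edgeR adjusted p = 0.424). *Aplnr* was at 55.0, 14.7, 2.65 and 0 CPM and its ligand *Apln* at 175, 176, 367 and 349 CPM in the members, the receptor being higher in both DFAT libraries and the ligand in both ASPC libraries.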
